A study of Sus scrofa with 12 samples.

Results

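Kinesins are motor proteins that bind microtubules and use ATP to move along them, to slide them past each other or to shorten them. One set works in dividing cells, where the motors build the spindle, align the chromosomes and finish cytokinesis, and its transcripts are known to be low in tissue that does not divide. Another set carries vesicles, organelles and ciliary cargo in cells of every kind, and a smaller set shapes cilia, which the ciliated cells of the uterine lining bear. Members were taken by symbol, as every gene named KIF or KIFC followed by a digit, which gave 41 of the 20674 genes in the expression table. They comprised 12 mitotic kinesins, 14 transport kinesins, 6 kinesins of cilia and 9 others, by their known roles. KIF1BP, a binding protein of kinesins and not a motor, also carries such a name, so that 40 of the 41 were motors.

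RNA of endometrium, the inner lining of the uterus, was sequenced from Landrace × Yorkshire sows of the second or the third parity that were fed 1 of 4 diets from breeding over 114 days of gestation. L − N sows received 3.73% crude fiber without N-carbamylglutamate (NCG), an analog of N-acetylglutamate that activates arginine synthesis. L + N sows received 3.73% crude fiber with 0.05% NCG, H − N sows 7.46% crude fiber without NCG, and H + N sows 7.46% crude fiber with 0.05% NCG. Each group had 3 libraries, and nothing used here states which of the euthanized sows they came from, so the p-values measure the spread between these libraries. The higher fiber came from soybean bran and beet pulp that replaced part of the corn. The high-fiber diets also held soybean oil, which the low-fiber diets did not, and other ingredients differed slightly. Fiber, its source and the oil therefore changed together. Total counts ran from 14369781 to 19309724 per library, and kinesins held 0.120% to 0.166% of them. Markers of epithelium, stroma and vessels were expressed in every library, while the trophoblast markers in the table summed to 1.501 to 3.08 FPKM with CDX2 at 0. L − N replicate 1 stood apart in its smooth muscle markers, which summed to 2662 FPKM against 847 and 936 in the other L − N libraries.

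Levels are given as FPKM, a measure scaled to transcript length and library size, so that genes of different length can be compared. All mitotic, transport and cilia kinesins and 8 of the 9 others passed the filter on low counts, so 40 of the 41 were tested among 15351 genes. KIF2B, a depolymerase, had 0 counts in every library. Transport kinesins were the more abundant set, led by KIF1C, KIF5B and KIF13B with means of 31.0, 19.6 and 15.0 FPKM over the 12 libraries. The most abundant mitotic kinesin, KIF22, which pushes chromosome arms toward the spindle equator, had a mean of 7.52 FPKM, and the least abundant, KIF18A, had 0.920. Endometrium was sequenced in bulk, so that fewer cells of a type and less RNA per cell cannot be told apart.

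Kinesins called for NCG were mostly mitotic ones. The effect of NCG was taken between the 6 libraries that had it, in both fiber groups, and the 6 that did not, each group weighing equally. A gene was called when the quasi-likelihood test of edgeR, with Benjamini-Hochberg adjustment over all genes tested, gave an adjusted p under 0.05 and the log2 fold change was above 1 or below −1. By this rule 9 of the 40 kinesins rose with NCG and 0 fell, where 1.67% of all genes tested rose and 0.130% fell. KIF1C and KIF3C were the 2 kinesins with a negative value and an unadjusted p under 0.05 in the edgeR fit, and DESeq2 also called 9 higher and 0 lower. Of the 15530 genes that DESeq2 adjusted, it called 309 higher and 53 lower. The 9 that rose in the edgeR fit were the mitotic kinesins KIF11, KIF15, KIF20B, KIF18A, KIF4A, KIF14 and KIF2C, the transport kinesin KIF3A and the cilia kinesin KIF27. The family was picked with earlier results of these libraries known, so the counts describe the members and are not independent evidence of their direction.

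**Figure D1:**
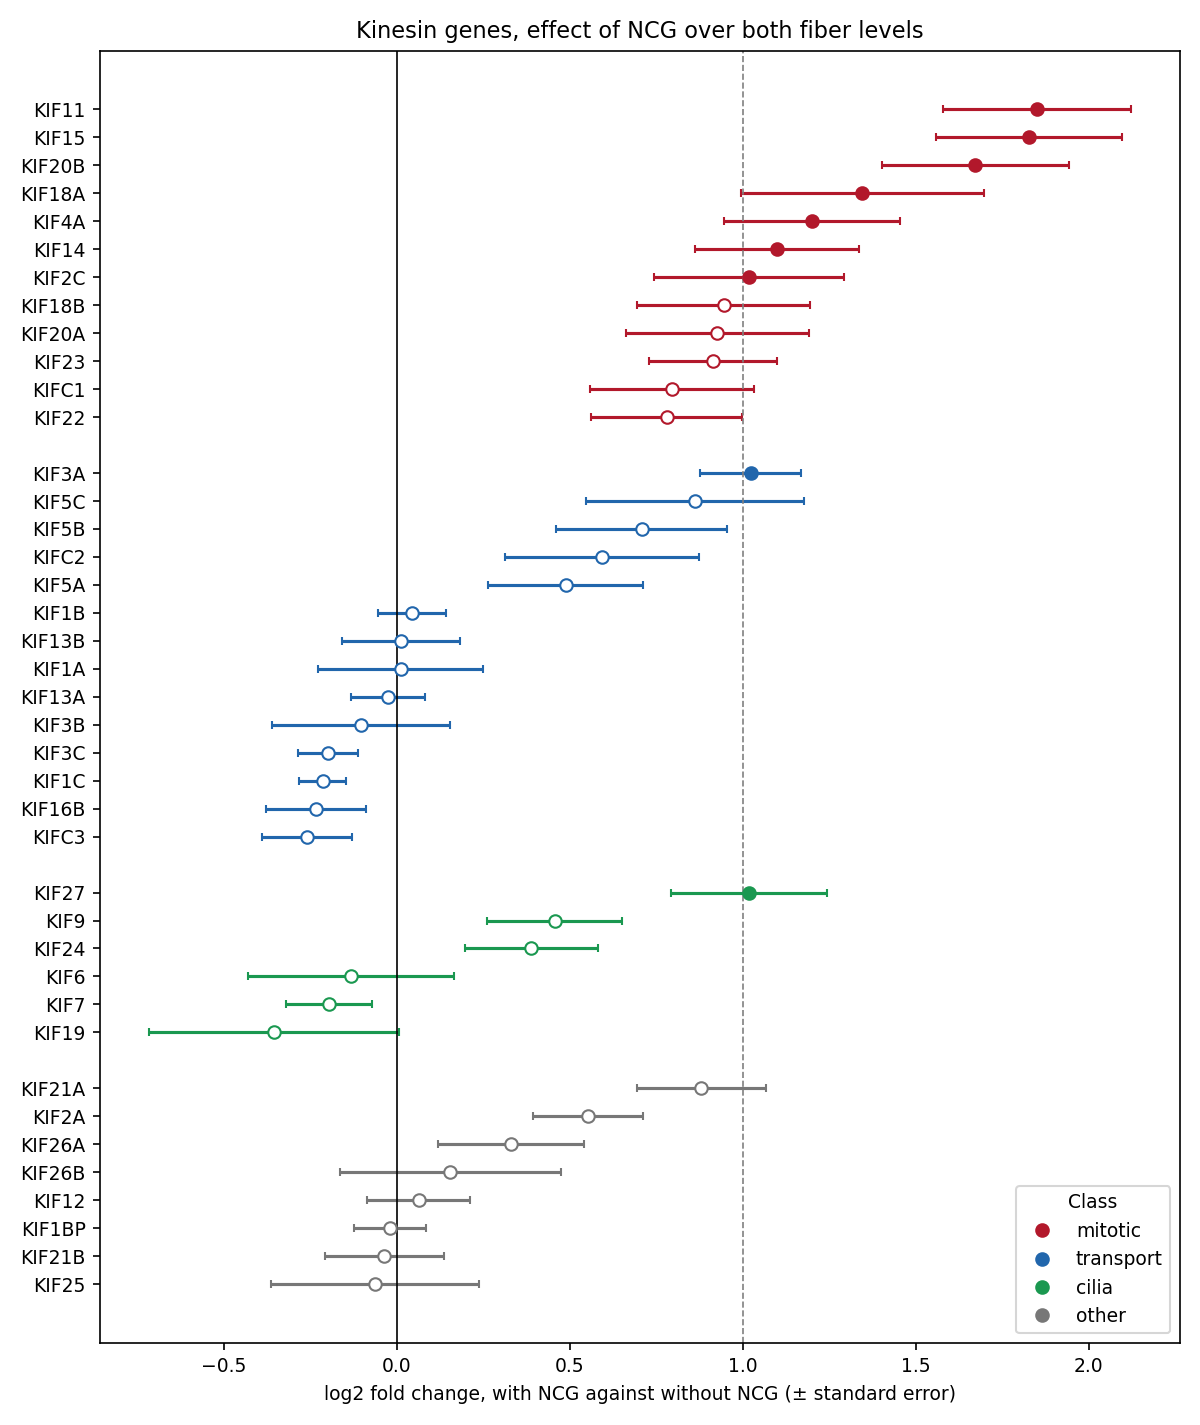
Log2 fold change for NCG over both fiber levels (x axis) for the 40 kinesins tested, grouped by class, with standard errors as bars. Filled points passed both thresholds, and the dashed line marks a log2 fold change of 1; all 12 mitotic kinesins lie right of 0, between 0.78 and 1.85, whereas the transport kinesins spread from −0.26 to 1.02.

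Among the mitotic kinesins, 12 of 12 had a positive log2 fold change for NCG, where 46.9% of all genes tested did. Their median was 1.06, beside −0.03 over all genes tested. Transport kinesins had 8 of 14 positive and a median of 0.01. The cilia class had 3 of 6 positive with a median of 0.13, and the other kinesins 5 of 8 with a median of 0.11. On CPM scaled by TMM, every library with NCG lay above every library without it for 9 of the 12 mitotic kinesins and for 1 of the 14 transport kinesins, where 3.22% of all genes tested showed this.

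KIF11 (chromosome 14, 104125839 to 104177381, plus strand, on Sscrofa11.1) is the kinesin-5 that slides the spindle poles apart and is a textbook target of mitotic inhibitors. Its level was 0.649, 1.87 and 0.767 FPKM in L − N replicates 1 to 3, 6.74, 8.32 and 7.06 in L + N, 1.72, 2.86 and 3.45 in H − N, and 5.73, 5.33 and 6.17 in H + N. The libraries with NCG lay above all of those without it. The log2 fold change for NCG was 1.85 ± 0.27 (SE, 6 libraries against 6), a 3.61-fold difference with an adjusted p of 0.00578. KIF15 (chromosome 13, 27966586 to 28041121, plus strand), the kinesin-12 that keeps the spindle bipolar beside KIF11, had the next largest change. It was at 0.726, 1.16 and 0.345 FPKM in L − N, 3.89, 4.66 and 4.73 in L + N, 1.20, 1.70 and 1.84 in H − N, and 2.72, 3.48 and 4.77 in H + N. Libraries with and without NCG did not overlap for KIF15 either, and its log2 fold change was 1.83 ± 0.27 with an adjusted p of 0.00578.

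The kinesin-6 motors act at the central spindle and in cytokinesis, and they are KIF20A, KIF20B and KIF23. KIF20B (chromosome 14, 101512685 to 101594703, plus strand) was at 0.410, 0.866 and 0.474 FPKM in L − N, 1.35, 2.99 and 1.95 in L + N, 0.423, 0.605 and 0.722 in H − N, and 1.93, 1.62 and 1.91 in H + N. It was at the same mean level in both groups without NCG, with means of 0.583 FPKM in each, so that fiber without NCG gave a log2 fold change of −0.06 ± 0.38. With NCG it rose by 1.67 ± 0.27 on the log2 scale (adjusted p = 0.00728). KIF23 (chromosome 1, 167239973 to 167281250, plus strand), a subunit of centralspindlin, was at 2.23, 3.88 and 1.60 FPKM in L − N, 8.07, 7.41 and 6.97 in L + N, 4.69, 5.01 and 5.49 in H − N, and 6.26, 7.01 and 7.14 in H + N. All libraries with NCG lay above all without it, and the change was 0.91 ± 0.19 (adjusted p = 0.0163), short of the fold threshold. KIF20A ran from 1.05 to 3.23 FPKM in L − N and from 4.51 to 6.39 in L + N, with a log2 fold change for NCG of 0.93 ± 0.26 (adjusted p = 0.0580), and it shares 1811 bases with CDC23 on the opposite strand, while the counting strand is not given in the sources used here.

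KIF4A, a chromokinesin of chromosome arms and the spindle midzone, and KIF14, which is needed for cytokinesis, also rose. KIF4A (chromosome X, 56319453 to 56447560, plus strand) was at 1.16, 2.39 and 0.656 FPKM in L − N, 4.50, 4.13 and 5.38 in L + N, 2.20, 2.48 and 2.53 in H − N, and 3.67, 4.40 and 4.55 in H + N. The highest library without NCG, H − N replicate 3, stayed below the lowest with it, and the log2 fold change was 1.20 ± 0.25 (adjusted p = 0.0182). KIF14 (chromosome 10, 23123379 to 23177919, minus strand) was at 0.353, 0.795 and 0.275 FPKM in L − N, 1.78, 1.72 and 1.93 in L + N, 1.21, 0.879 and 1.22 in H − N, and 1.45, 1.56 and 1.40 in H + N. All 4 groups of KIF14 were separate from each other, with L − N lowest, then H − N, then H + N, and L + N highest, and its log2 fold change for NCG was 1.10 ± 0.24 (adjusted p = 0.0194).

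**Figure D2:**
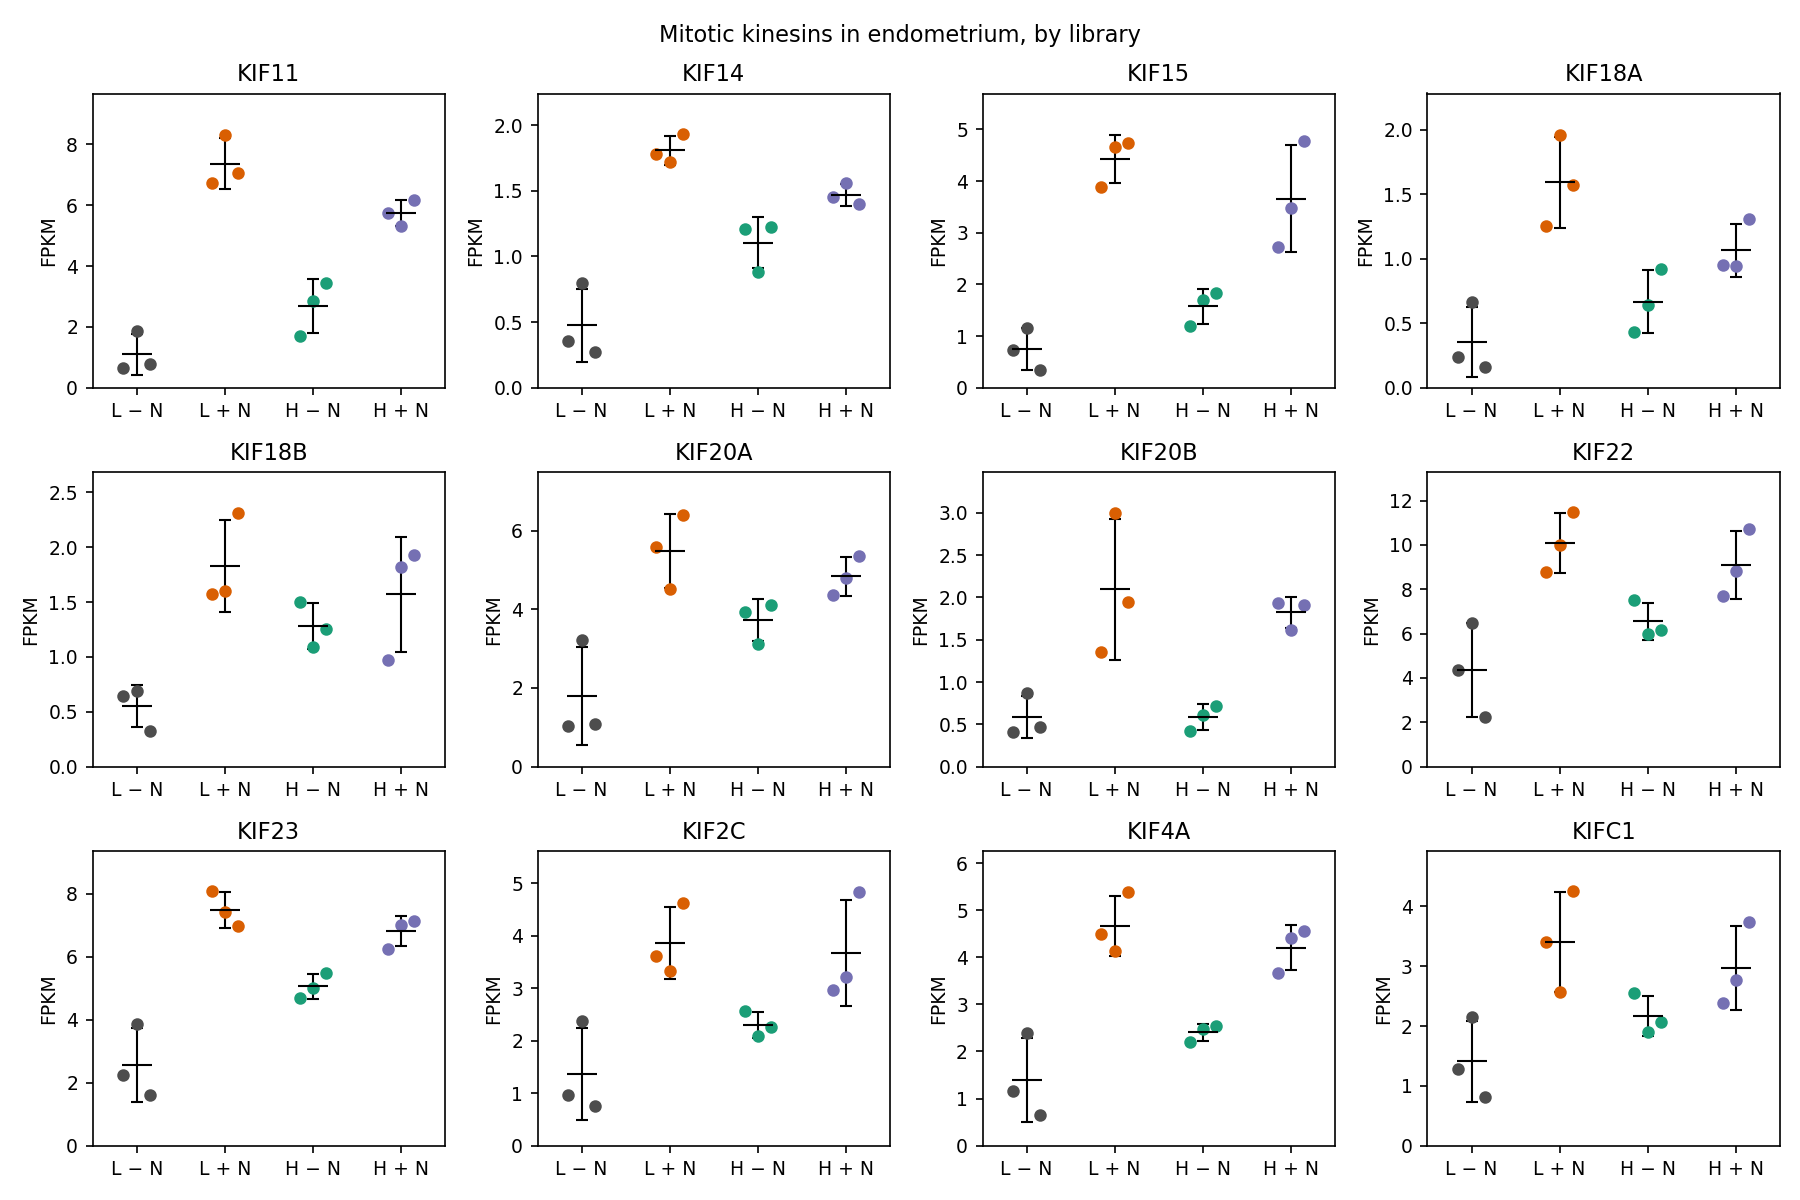
FPKM of each of the 12 mitotic kinesins (y axes, each starting at 0) in the 3 libraries of each group (x axes). Points are libraries and bars are the mean ± SD; the L − N mean is the lowest or, for KIF20B, level with H − N at 0.583 FPKM, and the L + N mean is the highest in every panel.

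Calls of the other mitotic kinesins were weaker. KIF18A, which dampens chromosome movements at the metaphase plate, rose by 1.35 ± 0.35 on the log2 scale (adjusted p = 0.0422) but kept its call in only 2 of the 12 fits that left out 1 library each. KIF2C, a depolymerase of centromeric microtubules, changed by 1.02 ± 0.28 (adjusted p = 0.0484) and kept its call in 1 of those 12 fits. The locus of KIF2C shares 4937 bases with C6H1orf228 on the same strand, which had a log2 fold change of 0.21 ± 0.32. KIF18A shares 2 bases with METTL15 on the opposite strand, which had a log2 fold change for NCG of 1.004 ± 0.15 (adjusted p = 0.00585). METTL15 had 1944 counts over the libraries against 632 for KIF18A, and the share of its reads in the KIF18A counts was not tested. KIF18B, which shortens astral microtubules, had a log2 fold change of 0.95 ± 0.25 (adjusted p = 0.0444), below the fold threshold. KIFC1, the minus-end motor that focuses spindle poles, had 0.80 ± 0.24 (adjusted p = 0.0680), and KIF22 had 0.78 ± 0.22 (adjusted p = 0.0542). KIF11, KIF15, KIF20B and KIF4A kept their calls in all 12 fits, and KIF14 in 11.

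L − N replicate 2 had the highest level among the L − N libraries for all 12 mitotic kinesins, with a summed level of 26.5 FPKM against 14.04 and 9.503. Without it, 13 kinesins were called for NCG, and without L − N replicate 3, L + N replicate 2 or H − N replicate 1 there were 5. Over all genes tested, these fits called 340, 187, 157 and 157 in that order, beside 276 in the main fit. In each of these 4 fits the mitotic kinesins with a call included KIF11, KIF15, KIF20B and KIF4A.

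KIF3A was the 1 transport kinesin called for NCG. It forms the kinesin-2 motor with KIF3B or KIF3C and the adaptor KIFAP3, and carries vesicles and the cargo of growing cilia. KIF3A (chromosome 2, 134932339 to 135069408, minus strand) was at 3.43, 3.99 and 3.71 FPKM in L − N, 10.8, 12.2 and 10.8 in L + N, 4.14, 5.85 and 7.34 in H − N, and 10.02, 8.10 and 7.96 in H + N. Libraries with NCG lay above all without it, and the L + N libraries above all H + N libraries. The log2 fold change for NCG was 1.02 ± 0.15, a 2.03-fold difference with an adjusted p of 0.00578. In the 12 fits without 1 library its adjusted p was at most 0.0215, while the fold passed the threshold in 8. Its partners, named after their values were seen, had other values. KIF3B had a log2 fold change of −0.10 ± 0.26, KIF3C of −0.20 ± 0.09 and KIFAP3 of 0.09 ± 0.08, and none passed the adjusted p. The ratio of KIF3A to KIFAP3 in FPKM ran from 0.271 to 0.291 in L − N, 0.740 to 0.813 in L + N, 0.330 to 0.582 in H − N and 0.483 to 0.673 in H + N. The annotated locus of KIF3A overlaps RAD50, IL13 and IL4 on the opposite strand. RAD50, a DNA repair gene, had 7122 counts over the libraries against 9238 for KIF3A and a log2 fold change for NCG of 1.06 ± 0.19 (adjusted p = 0.0113), and the share of its reads in the KIF3A counts was not tested.

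**Figure D3:**
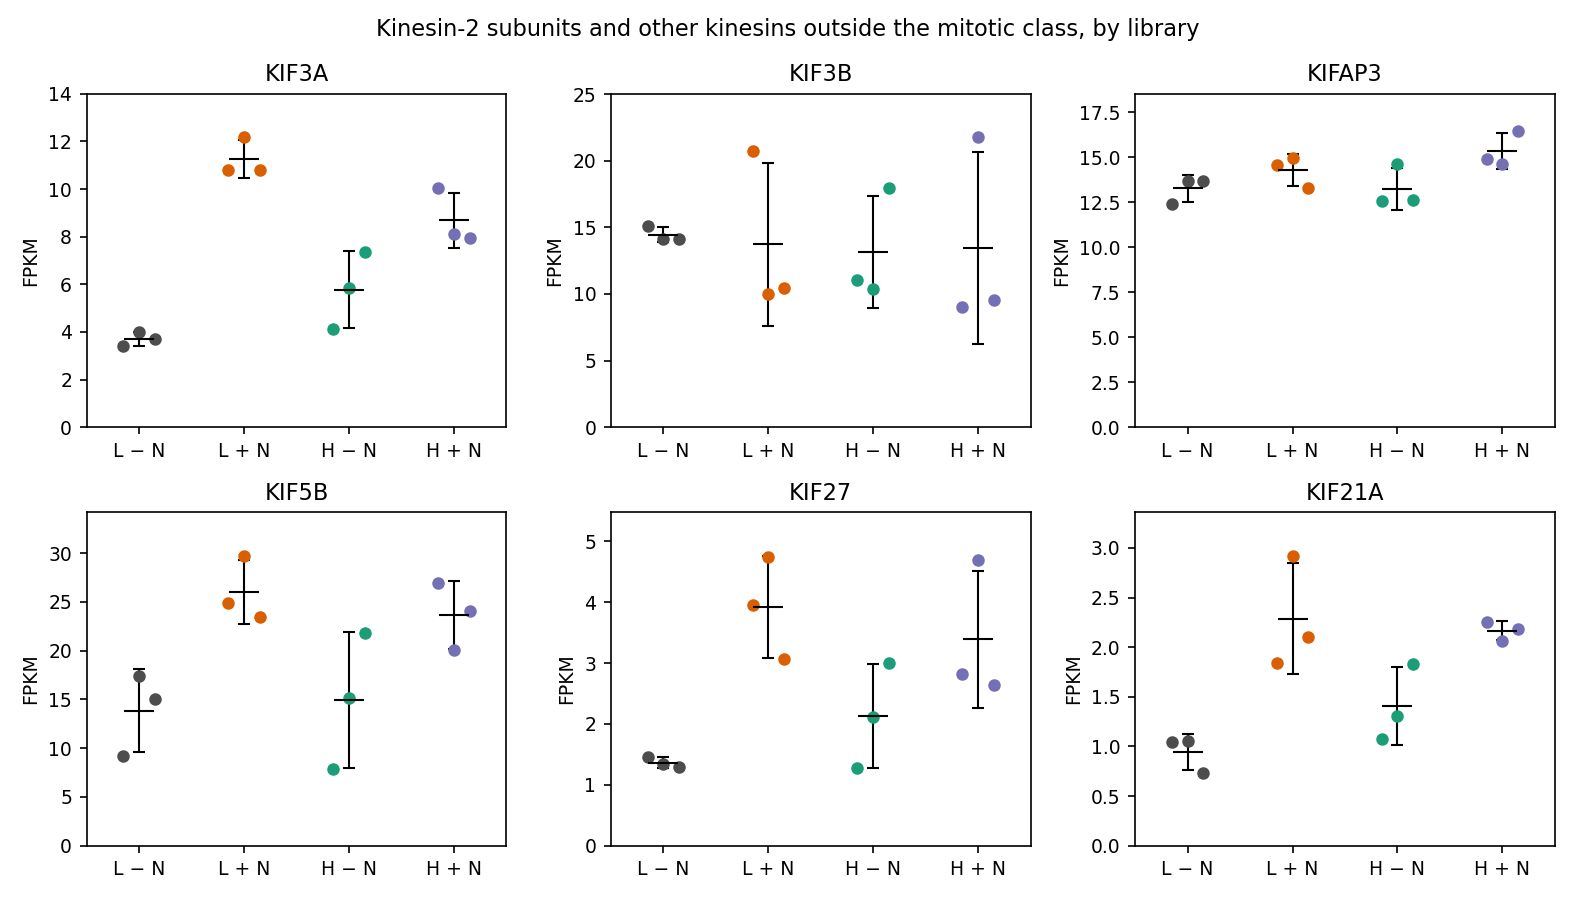
FPKM (y axes from 0) of KIF3A, its partners KIF3B and KIFAP3, and of KIF5B, KIF27 and KIF21A in the 3 libraries of each group (x axes), with mean ± SD. KIF3A lies at 3.43 to 3.99 in L − N and 10.8 to 12.2 in L + N, whereas the 2 groups overlap for KIF3B and for KIFAP3.

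The rest of the transport class showed no call for NCG. KIF1C (chromosome 12, 51899762 to 51924465, minus strand), a carrier of dense-core vesicles and integrins, was the most abundant kinesin. Its level was 39.7, 35.3 and 33.5 FPKM in L − N, 30.2, 27.5 and 30.4 in L + N, 32.0, 27.2 and 28.4 in H − N, and 27.6, 30.8 and 29.3 in H + N. The 3 L − N libraries were above the other 9, and the log2 fold change was −0.21 ± 0.07 for NCG (adjusted p = 0.0847) and −0.42 ± 0.10 for L + N against L − N (adjusted p = 0.0217, under the fold threshold). KIF5B, the heavy chain of kinesin-1 in all tissues, was at 9.16, 17.4 and 15.0 FPKM in L − N, 24.8, 29.7 and 23.4 in L + N, 7.89, 15.1 and 21.8 in H − N, and 27.0, 20.0 and 24.1 in H + N. Its H − N and H + N libraries overlapped, and the log2 fold change for NCG was 0.71 ± 0.25 (adjusted p = 0.110). KIF13B, a vesicle carrier, was at 17.2, 11.5 and 13.9 FPKM in L − N, 14.1, 15.7 and 14.01 in L + N, 15.2, 17.6 and 12.05 in H − N, and 14.7, 23.8 and 10.2 in H + N, with overlap between all groups and a log2 fold change of 0.01 ± 0.17. KIFC3, a minus-end motor of epithelial junctions, had the lowest value for NCG in the class, −0.26 ± 0.13 (adjusted p = 0.250). It was at 5.57, 5.71 and 4.03 FPKM in L − N and at 2.90 to 4.20 in all other libraries, where H − N replicate 2 was the one library above the lowest of L − N on the FPKM scale.

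Kinesins of cilia had mixed values. KIF27, linked to motile cilia, was the member with a call and rose by 1.02 ± 0.22 on the log2 scale (adjusted p = 0.0217), a call it kept in 8 of the 12 fits without 1 library. It lay at 1.29 to 1.46 FPKM in L − N, 3.07 to 4.74 in L + N, 1.28 to 3.001 in H − N and 2.65 to 4.69 in H + N, so that H − N overlapped both L − N and H + N. KIF9, a motor of motile cilia, had a log2 fold change for NCG of 0.46 ± 0.20, and KIF24, a depolymerase of the mother centriole, one of 0.39 ± 0.19. KIF6 in motile cilia had −0.13 ± 0.30, KIF7 at the tip of the primary cilium −0.20 ± 0.12, and KIF19, which sets the length of motile cilia, −0.35 ± 0.36. A second locus annotated as KIF19-like, which the symbol rule does not take, held 26 counts in total. Of the 10 markers of ciliated epithelium, 1 (CCDC39) rose with NCG, where 1.67% of all genes tested did. CCDC39 was low, at 0.0566 to 0.596 FPKM over the libraries. Of the 10 markers, 9 were positive, where 46.9% of all genes tested were, with a median log2 fold change of 0.14. Their summed level ran from 23.2 to 84.7 FPKM in L − N, 61.9 to 83.9 in L + N, 84.8 to 127 in H − N and 50.9 to 141 in H + N.

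Among the other kinesins, KIF21A, which restrains microtubule growth, was at 1.05, 1.05 and 0.730 FPKM in L − N, 1.84, 2.92 and 2.103 in L + N, 1.07, 1.31 and 1.84 in H − N, and 2.25, 2.06 and 2.19 in H + N. The H + N libraries lay above all H − N libraries, and the change for NCG was 0.88 ± 0.19 (adjusted p = 0.0183), under the fold threshold. KIF2A, a depolymerase of spindle poles and neurons, ran from 3.58 to 6.16 FPKM without NCG and from 6.79 to 9.40 with it, with a log2 fold change of 0.55 ± 0.16 (adjusted p = 0.0591). Its locus shares 2977 bases with DIMT1 on the opposite strand, which had −0.07 ± 0.15. KIF1BP, the binding protein, had −0.02 ± 0.10.

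For the mitotic kinesins, the estimates of the NCG effect were larger at low fiber. In L + N against L − N, 12 kinesins rose, and 3.32% of all genes tested did. They were 9 mitotic kinesins (KIF11, KIF14, KIF15, KIF18A, KIF18B, KIF20A, KIF20B, KIF23 and KIF4A), KIF3A, KIF27 and KIF21A. The log2 fold change was positive for 12 of 12 mitotic kinesins and 5 of 14 transport kinesins, where 47.7% of all genes tested were positive. Its median was 1.60 in the mitotic class, −0.17 in the transport class and −0.02 over all genes tested. Groups did not overlap for 12 of 12 mitotic kinesins, where 18.0% of all genes tested lay higher in this way. Of the 14 transport kinesins, 4 lay higher without overlap and 3 lower, beside 18.0% and 17.2% of all genes tested. In the same way, 3 of 6 cilia kinesins and 3 of 8 other kinesins lay higher. KIF11 was 6.11-fold higher (log2 fold change 2.61 ± 0.40, adjusted p = 0.00818), KIF15 5.45-fold, KIF18A 4.06-fold and KIF3A 2.78-fold. By the adjusted p alone, 2 kinesins were lower, where 3.63% of all genes tested were, namely KIF1C and KIF3C, a kinesin-2 motor, the latter with a log2 fold change of −0.46 ± 0.12 (adjusted p = 0.0394). The count of 12 fell to 4 without L − N replicate 3, to 5 without L + N replicate 2 and to 7 without L + N replicate 3. Calls over all genes tested fell from 613 to 143, 183 and 384 in these fits. KIF11, KIF15, KIF23 and KIF3A kept their calls in every fit without 1 library.

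On the high-fiber diet, H + N against H − N gave a call for 0 kinesins, as for all genes tested (0%). Of the kinesins, 7 had an unadjusted p under 0.05, where 8.67% of all genes tested did, and DESeq2 called 1, KIF20B. Of the 17657 genes that DESeq2 adjusted there, it called 25. All 12 mitotic kinesins had a positive value, as had 51.0% of all genes tested. The median was 0.57 in the mitotic class, 0.11 in the transport class and 0.01 over all genes tested. KIF20B had the largest value, 1.63 ± 0.38 (unadjusted p = 0.00126 in the edgeR fit, adjusted p = 0.451), followed by KIF15 with 1.21 ± 0.37 and KIF11 with 1.09 ± 0.37. H + N lay above H − N without overlap for 9 of 12 mitotic kinesins, where 7.82% of all genes tested did.

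The interaction, which is the NCG effect at high fiber minus that at low fiber, gave a call for 0 kinesins and for 0% of all genes tested. With edgeR 10 kinesins had an unadjusted p under 0.05, where 12.8% of all genes tested did, and DESeq2 called 0. Of the 15530 genes that DESeq2 adjusted for the interaction, it called 187. All 12 mitotic kinesins had a negative value, where 49.4% of all genes tested had a positive one, with a median of −1.05, against −0.01 over all genes and 0.19 in the transport class. The interaction was −1.52 ± 0.53 for KIF11 (adjusted p = 0.302), −1.39 ± 0.47 for KIF14 (adjusted p = 0.294) and −0.08 ± 0.53 for KIF20B (adjusted p = 0.963). A difference between fiber levels was therefore not shown for any kinesin.

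**Figure D4:**
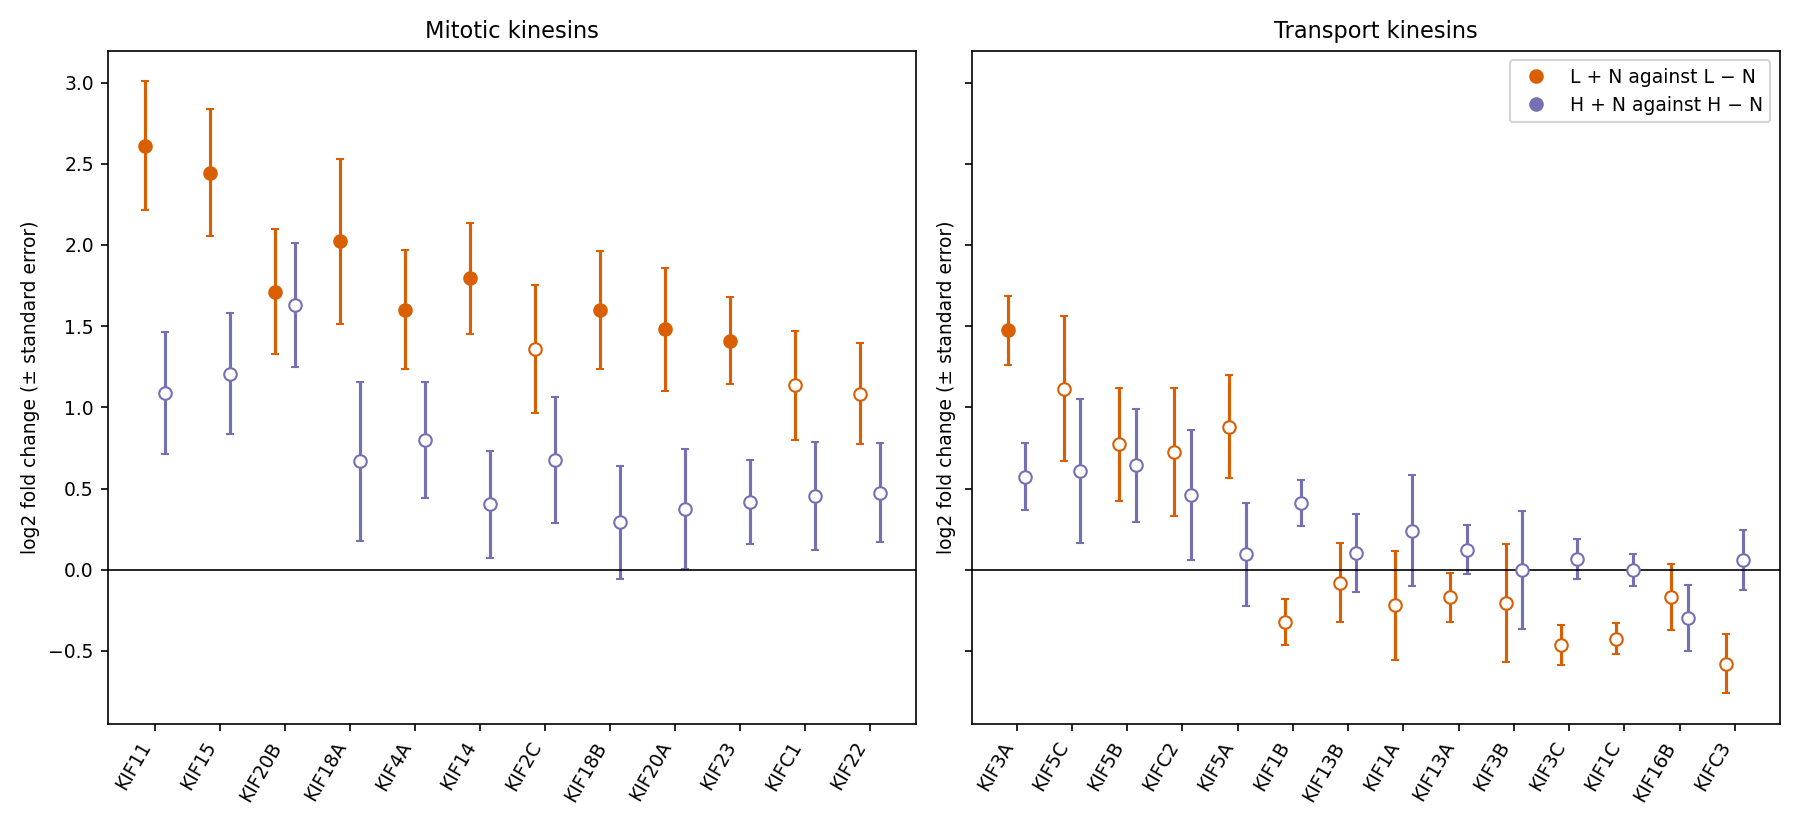
Log2 fold change (y axis, ± SE) for NCG at each fiber level for the mitotic (left) and transport (right) kinesins on the x axis; orange points are L + N against L − N, purple points H + N against H − N, and filled points passed both thresholds. For 12 of 12 mitotic kinesins the orange point is above the purple one, while for KIF20B they lie at 1.71 and 1.63.

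Fiber by itself gave no kinesin call. For high against low fiber, over both NCG levels, 0 kinesins were called, where 0.0261% of all genes tested were. In that fit with edgeR, 7 kinesins had an unadjusted p under 0.05, where 19.5% of all genes tested did, and DESeq2 called 0. Of the 15884 genes that DESeq2 adjusted there, it called 305. Mitotic kinesins were positive in 11 of 12 cases, where 53.7% of all genes tested were, with a median of 0.38 against −0.11 for transport kinesins. In H − N against L − N, 0 kinesins were called, against 2.91% of all genes tested, while 15 had an unadjusted p under 0.05 in the edgeR fit (24.4% of all genes tested). DESeq2 called 4 there, with KIF11, KIF14 and KIF18B higher and KIF1A, a carrier of synaptic vesicle precursors, lower. Of the 15884 genes that it adjusted, it called 355 higher and 583 lower. Mitotic kinesins had a median of 0.89 with 11 of 12 positive, KIF20B being the exception (53.5% of all genes tested were positive), and transport kinesins one of −0.14. By the adjusted p alone 2 kinesins were lower, where 3.71% of all genes tested were. These transport motors, KIF1B and KIF3C, did not pass the fold threshold, with log2 fold changes of −0.77 ± 0.14 (adjusted p = 0.0219) and −0.67 ± 0.12 (adjusted p = 0.0224). Their H − N libraries lay below all L − N libraries, at 6.59 to 7.64 FPKM against 9.78 to 12.4 for KIF1B and at 4.06 to 4.98 against 6.25 to 7.41 for KIF3C. On CPM scaled by TMM, 5 of 14 transport kinesins lay lower in H − N without overlap, where 12.7% of all genes tested did. They were KIF1A, KIF1B, KIF1C, KIF3C and KIFC3, and 0 transport kinesins lay higher. Of the 12 mitotic kinesins, 3 lay higher in this way and 0 lower, where 12.8% of all genes tested lay higher.

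With both additions, in H + N against L − N, 12 kinesins rose, where 2.29% of all genes tested did. They were the mitotic kinesins KIF11, KIF14, KIF15, KIF18B, KIF20A, KIF20B, KIF23 and KIF4A, together with KIF3A, KIF24, KIF27 and KIF21A. KIF11 was 4.996-fold higher (log2 fold change 2.32 ± 0.39, adjusted p = 0.0158) and KIF24 2.01-fold (1.01 ± 0.27, adjusted p = 0.0471). KIF24 shares 12800 bases in sum with NUDT2 and UBAP1 on the opposite strand. They had 2151 and 9621 counts against 2103 for KIF24, and log2 fold changes of 0.21 ± 0.24 and −0.22 ± 0.11 in this comparison. The share of their reads in the KIF24 counts was not tested. Mitotic kinesins had a median of 1.48 and transport kinesins one of −0.08. The count fell to 0 if L − N replicate 3 or H + N replicate 1 was left out. It fell to 3 without H + N replicate 3, and to 7 with the replicate number as a block. Calls over all genes tested fell from 549 to 4, 1, 186 and 397 in these fits, in that order. The comparisons of L + N, H − N and H + N with L − N share the 3 L − N libraries, so their counts are not independent of each other.

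Summed over the class, mitotic kinesins reached 9.503 to 26.5 FPKM in L − N, 28.4 to 32.0 in H − N, 41.1 to 53.8 in H + N and 50.5 to 58.6 in L + N. Transport kinesins summed to 127 to 137 FPKM in L − N, 113 to 119 in H − N, 118 to 151 in H + N and 140 to 150 in L + N. The ratio of the mitotic to the transport sum therefore ran from 0.0748 to 0.204 in L − N, 0.238 to 0.269 in H − N, 0.297 to 0.457 in H + N and 0.336 to 0.419 in L + N. L − N and H − N did not overlap with each other or with the groups given NCG, and L + N overlapped H + N. These sums are a description of the members and were given no test.

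**Figure D5:**
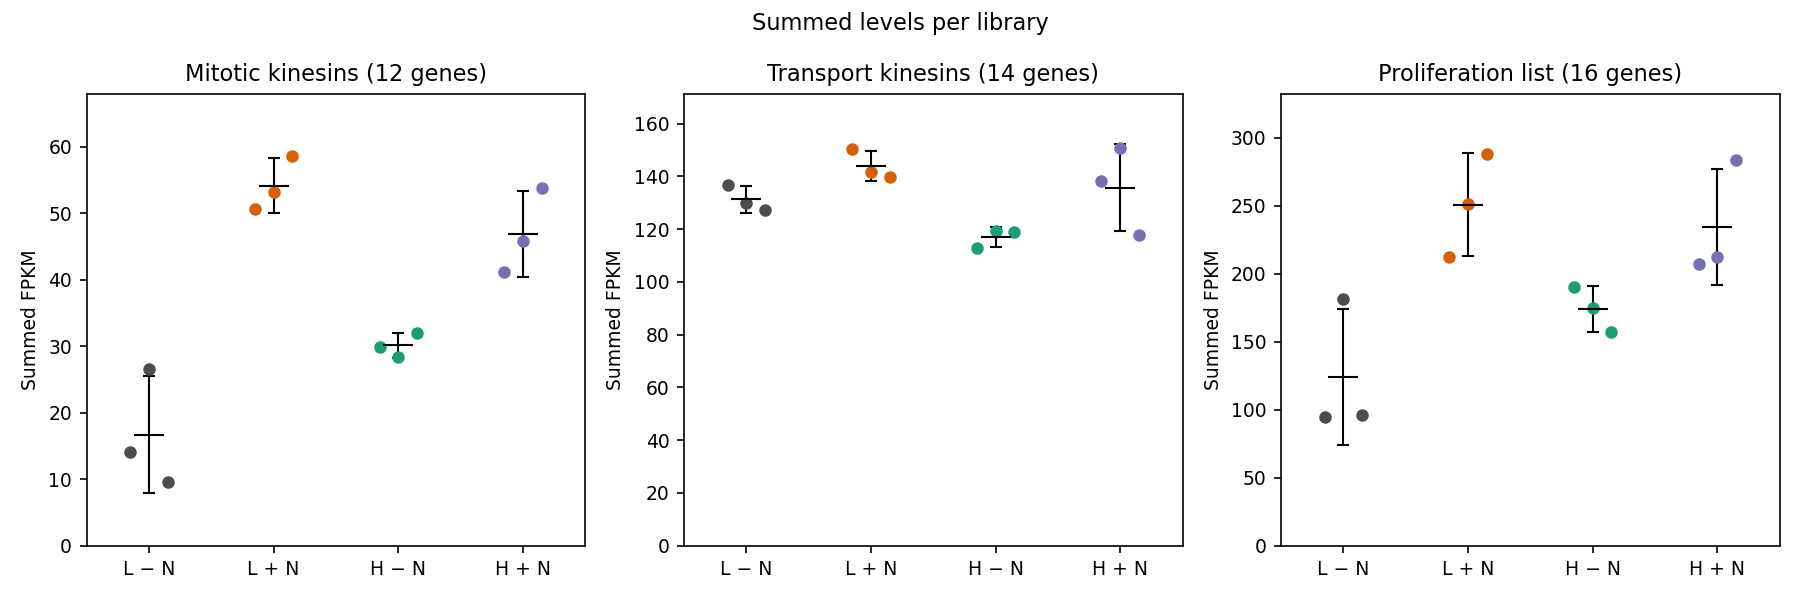
Summed FPKM (y axes from 0) of the mitotic kinesins, the transport kinesins and a list of 16 proliferation genes in the 3 libraries of each group (x axes), with mean ± SD. The mitotic sum is 9.503 to 26.5 in L − N and 50.5 to 58.6 in L + N, and the proliferation sum shares the low L − N values, with 94.5 to 181 against 212 to 288.

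Several genes that work with the mitotic kinesins or mark dividing cells rose too. Of 20 spindle and cytokinesis partners, 6 rose with NCG, where 1.67% of all genes tested did, and 20 of 20 were positive, where 46.9% of all genes were, with a median log2 fold change of 0.88. CENPE, the kinetochore motor of the kinesin-7 family whose symbol lies outside the KIF rule, rose by 1.99 ± 0.37 (adjusted p = 0.0114) and the spindle protein HMMR by 2.14 ± 0.29 (adjusted p = 0.00578). RACGAP1, which joins KIF23 in centralspindlin, had 0.76 ± 0.14 (adjusted p = 0.0114), under the fold threshold. Of 16 proliferation genes, 7 rose, beside the same 1.67% of all genes, among them TOP2A (1.83 ± 0.27, adjusted p = 0.00578), the cyclin CCNA2 (1.05 ± 0.18, adjusted p = 0.00959) and MKI67 (1.13 ± 0.24, adjusted p = 0.0180). The mitotic kinesin sum was 0.0992 to 0.149 of the proliferation sum in L − N, 0.157 to 0.204 in H − N, 0.190 to 0.216 in H + N and 0.204 to 0.238 in L + N. In every library PCNA, at 36.8 to 92.5 FPKM, and TYMS, at 14.3 to 56.4 FPKM, had the highest levels of the proliferation list. These genes weigh most in that ratio, so it does not compare the kinesins with each proliferation gene.

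Of 24 cargo adaptors, light chains and dynein partners of the transport kinesins, 1 rose with NCG, beside 1.67% of all genes tested. Of the 24, 9 were positive, beside 46.9% of all genes tested, with a median of −0.08. The list includes KIF1BP, which is also counted above among the other kinesins. The gene that rose was KTN1, kinectin, a membrane anchor of kinesin on the endoplasmic reticulum, with 1.09 ± 0.20 (adjusted p = 0.0114). The cargo adaptor SPAG9 had 0.51 ± 0.11 (adjusted p = 0.0186) and the dynein adaptor HOOK3 0.61 ± 0.17 (adjusted p = 0.0533). The 7 tubulins tested, the subunits of the track itself, had log2 fold changes of −0.14 to 0.52 with a median of 0.19.

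Markers of other cell types also differed between these groups. The 5 macrophage markers had log2 fold changes for NCG of −0.63 to 0.14, and against L − N a total of 2 fell in the L + N group, 4 with fiber alone and 3 with both additions, where 0.671%, 2.01% and 1.28% of all genes tested fell. Their sum ran from 181 to 500 FPKM in L − N, 169 to 255 in L + N, 97.9 to 158 in H − N and 151 to 221 in H + N. Of 5 smooth muscle markers, 2 fell in L + N against L − N, beside the same 0.671%, and their sum was 847 to 2662 FPKM in L − N, 482 to 593 in L + N, 389 to 751 in H − N and 682 to 703 in H + N. Of 9 stromal markers, 1 (HOXA10) rose with NCG, beside 1.67% of all genes, and their sum was 6578 to 8198 FPKM in L − N and 7395 to 12874 in the other libraries. None of these 3 lists had a marker at 0 in all libraries. Of 5 endothelial markers, PECAM1 fell in L + N against L − N, by 1.09 on the log2 scale (adjusted p = 0.0110). All 8 epithelial markers had negative values for NCG, where 46.9% of all genes tested had positive ones, with a median of −0.24 and no call. The neutrophil markers had a median of −1.68 for NCG and no call, and their sum in H − N replicate 3 was 193 FPKM against 11.6 and 3.45 in the other H − N libraries. Without that library, 9 kinesins were called for NCG, beside 323 of all genes tested. The 2 erythroid markers tested had a median of −3.04 in L + N against L − N, also without a call. The part of these cell types in the kinesin values was not tested.

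Over all genes tested, the fold change for NCG also moved with transcript length, with a Spearman correlation of 0.27 across genes, which are not independent replicates. The median log2 fold change ran from −0.13 in the shortest quintile of transcripts to 0.11 in the longest, and the share of genes that rose from 0.684% to 3.13%. The mitotic kinesins lay mainly in the third quintile, with 4, and the fourth, with 5, where the medians were −0.02 and 0.03. The part of length in the kinesin calls was not tested.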

How the data were processed

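Total RNA of endometrium was extracted with Trizol, and the authors built strand-specific poly(A) libraries that were sequenced in pairs on an Illumina instrument. The submitters' processing notes name fastp 0.22.0, HISAT2 2.1.0, HTSeq 0.9.1 and the build Sscrofa11.1, while the counting strand is not given in the sources used here. The deposited table holds the authors' raw read count per gene and library, without normalization. It also holds the FPKM values that the authors made from these counts, which differed from that calculation by at most 1.91e-05 percent. Libraries were assigned to groups by the letter codes of their titles.

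Counts were analysed with edgeR 4.0.16 in R 4.3.3, which loads limma 3.58.1, and with DESeq2 1.42.0. filterByExpr kept 15351 of 20674 genes, TMM scaled the libraries, and 1 quasi-likelihood model with 1 mean for each group took in all 12 libraries (8 residual degrees of freedom). The Benjamini-Hochberg adjustment was made over all genes tested, and the thresholds are those of the study, which ran DESeq2. FPKM gave the levels and no test. Pairs of replicates differed with a chi-square per gene of 23.3 to 99.8, so none was a repeated library. The biological coefficient of variation was 0.269. On 5 simulated sets of 15351 genes with 200 changed by 2 on the log2 scale, the NCG contrast recovered 94.9% with 3.8 false calls on average. The kinesins had log2 fold changes for NCG of at most 1.85, and recovery at values below 2 was not tested.

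The members, their classes and the gene lists were chosen with earlier results of these data known, and classes were assigned from general knowledge. No set test was made. Values were named for every kinesin called in any of the 7 comparisons, every mitotic and cilia kinesin, the 3 most abundant transport kinesins and those with the highest and lowest NCG change, and the 3 genes of each partner list with the smallest NCG p. KIF3B, KIF3C, KIFAP3, KIF1A, KIF1B, KIF2A and KIF1BP were named after their values were seen, as were neighbors that overlap a member. All 41 members had the same position in the RefSeq table of the pig. KIF4B, KIF17 and KIF28P are not analysed here. Alternatives were RLE scaling, no filter on low counts, DESeq2, no fold threshold, the replicate number as a block, other class assignments and leaving out each library in turn.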

Additional observations from a re-analysis of the deposited data

How the results depend on the processing

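Scaling by RLE, no filter on low counts, DESeq2 and the replicate block left the number of kinesins called for NCG at 8 to 9, and no result changed direction under any alternative with a call. The count for NCG ran from 5 to 13 over the fits without 1 library, that for L + N against L − N from 4 to 14 and that for H + N against L − N from 0 to 12. Calls over all genes tested ran from 157 to 340, 143 to 911 and 1 to 948 in these fits. In H − N against L − N, where 0 were called, DESeq2 gave 4, no fold threshold 2, and single libraries left out 0 to 5. The 5 came when L − N replicate 2 was dropped, beside 122 calls over all genes tested. Dropping L − N replicate 1 gave 2 kinesins, beside 1120 such calls. For this comparison the main fit called 446 genes, DESeq2 938 and the rule with no fold threshold 809. In H + N against H − N, DESeq2 gave 1 kinesin, beside 25 calls over all genes. No alternative gave a kinesin call for fiber over both NCG levels or for the interaction. Some alternatives called other genes there. DESeq2 called 305 genes for fiber and 187 for the interaction, and the fit without L − N replicate 1 called 331 and 346. The median for NCG stayed between 0.92 and 1.39 in the mitotic class and between −0.07 and 0.11 in the transport class over the fits without 1 library, and their difference, 1.05, was 1.01 with KIF2A counted as mitotic.

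The labels give the groups the same replicate numbers and do not say whether the numbers pair the samples. Correlations of same-numbered deviations ran from −0.32 to 0.28, with 3 of 18 pairs above 0.1, and 3 of 12 libraries agreed best with their own number. These values did not show a pairing and cannot exclude one. With the replicate number as a block, which leaves fewer residual degrees of freedom, the calls numbered 8 for NCG, 11 for L + N against L − N and 7 in place of 12 for H + N against L − N. Over all genes tested, the block gave 241 in place of 276, 535 in place of 613 and 397 in place of 549. KIF2C lost its NCG call under the block and without the filter on low counts.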

Other observations

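The genes outside the kinesin family were read only as far as the kinesin comparisons touch them. Within pairs of kinesins that share a class, levels did not keep a fixed ratio over the groups. The ratio of KIF11 to KIFC1, which act against each other at the spindle, was 0.506 to 0.943 in L − N, 1.66 to 3.24 in L + N, 0.673 to 1.67 in H − N and 1.64 to 2.41 in H + N. The ratio of KIF20B to KIF20A was 0.269 to 0.434 in L − N, 0.242 to 0.664 in L + N, 0.107 to 0.194 in H − N and 0.338 to 0.444 in H + N, so that H − N lay below every other library. KIF5B to KIF1C, the most abundant transport pair, was 0.231 to 0.492 in L − N, 0.771 to 1.08 in L + N, 0.247 to 0.766 in H − N and 0.650 to 0.976 in H + N. These pairs were named after their values were seen, and the ratios were given no test.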
